A study of Nannochloropsis oceanica with 18 samples.

Results

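In Nannochloropsis oceanica IMET1, the genes described here encode lipases and the enzymes and carriers of membrane lipid metabolism. They were chosen by their annotation, which had to hold a word for lipases, phospholipids, galactolipids, sulfolipid, glycerol-3-phosphate, phosphatidyl lipids, sphingolipids or sterols. Of 114 genes matched among the 9756 genes of the deposited tables, 18 were dropped as kinases, phosphatidate phosphatases or enzymes of triacylglycerol assembly, which left 96 genes on 34 scaffolds. By the words of their annotation they fall into galactolipids and sulfolipid (4 genes), glycerol-3-phosphate entry (12), phosphatidyl lipid synthesis and turnover (14), lipid transport and flippases (9), phospholipases (18), other lipases (17), sphingolipids (5), sterols (16) and 1 gene outside these roles. All are known only by that annotation, so the role given for each enzyme below is that of its family in plants, yeast or animals.

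Cells of this marine alga had been grown at 5% CO2 in air (HC) under continuous light, then washed and put into fresh medium at HC for 1 h. From there they were switched to 0.01% CO2 (VLC) for 3, 6, 12 or 24 h, or stayed at HC for the same times, and 0 h samples were taken at the end of the hour at HC. All 9 groups are the wild-type strain, with no transgene, and each has 2 mRNA libraries from biological replicates, 18 in all. The values are FPKM, fragments per length of transcript scaled to the fragments mapped in the library. The total of reads behind each library is not in the deposited tables, though the study's supplement lists it. Each culture was sampled at every time, and the labels do not tell which culture gave which library. Libraries of different times may therefore share a culture, which the fit treats as independent, and p-values measure the spread between these libraries. The RNA is that of whole cultures, in which fewer cells of a kind and less RNA per cell cannot be told apart.

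Membranes of plastids in algae and plants consist largely of the galactolipids MGDG and DGDG, the sulfolipid SQDG and phosphatidylglycerol, while other cell membranes hold phosphatidyl lipids, sphingolipids and sterols. Glycerolipids start from glycerol-3-phosphate, which acyltransferases load with acyl chains before a head group is added. Lipases and phospholipases cut acyl chains or head groups off again, and flippases and transfer proteins move lipids across and between membranes.

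At 12 h the HC libraries stood apart from all others. Their most abundant gene took 3.12% and 3.28% of the summed FPKM and their 10 most abundant genes 15.3% and 15.8%, against 0.61 to 1.35% and 4.02 to 8.38% in the other 16 libraries. The median gene had 17.5 and 17.6 FPKM there, against 22.4 to 28.1 FPKM elsewhere, and the median log2 VLC/HC of all genes tested at 12 h was 0.58. Ratios at 12 h are given as measured, and values with this median taken off are called centred here. The part of these libraries in the results at 12 h was not tested. The replicates of HC at 3 h lay furthest apart, with a median absolute log2 difference of 0.23 against 0.055 to 0.105 in the other groups. Of 18 genes annotated as light-harvesting proteins, 17 had 10 FPKM or more in every library.

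The lipid genes differed between VLC and HC mainly at 12 and 24 h, and the share called is given beside that of all genes, with no test of the difference between the shares. A gene was called where limma gave an adjusted p of 0.05 or less and the difference was at least 2-fold, and it was tested where its mean was at least 10 FPKM in VLC or HC. A gene under 10 FPKM in 1 arm could thus be tested through the arm where it was high, here as among all genes. At 3 h 1 of 76 genes was higher in VLC and 0 lower, against 0.701% higher and 0.268% lower among all genes tested. At 6 h 0 of 81 were called in limma in either direction, against 1.84% and 0.252% of all genes. An unadjusted limma p under 0.05 was found in 29 of the 81, and in 2082 of 7932 among all genes tested. Without replicate 1 of VLC at 6 h, 2 were called higher, the flippases g1230 (log2 1.02) and g1231 (1.11). At 12 h 26 of 86 were higher and 1 lower, against 27.6% and 4.36% of all genes. Without replicate 2 of VLC or of HC, 2 were lower. Centred, the counts at 12 h were 4 and 4, against 8.85% and 11.4% of all genes. At 24 h 10 of 81 were higher and 2 lower, against 11.2% and 5.95%, and 8 and 3 when centred, against 9.62% and 7.35%. Of the 96 genes, 89 were fitted, having reached a mean of 10 FPKM in some group. Over the 4 times 36 of these 89 were called at least at 1 time, against 37.9% of all genes fitted. On centred ratios 19 of the 89 were called, against 28.1% of all genes fitted. As measured, 3 genes were called at more than 1 time, the sulfolipid synthase SQD2 (g6721), a sterol glucosyltransferase (g9985) and an acid sphingomyelinase-like gene (g4819). The share of all genes called at more than 1 time was not computed, so this count is no result about the group. Centred, g4819 was called at no time and g9985 at 24 h only. The median log2 VLC/HC of the lipid genes was -0.10, -0.07, 0.64 and 0.38 at 3, 6, 12 and 24 h, beside -0.02, -0.06, 0.58 and 0.09 for all genes.

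**Figure D1:**
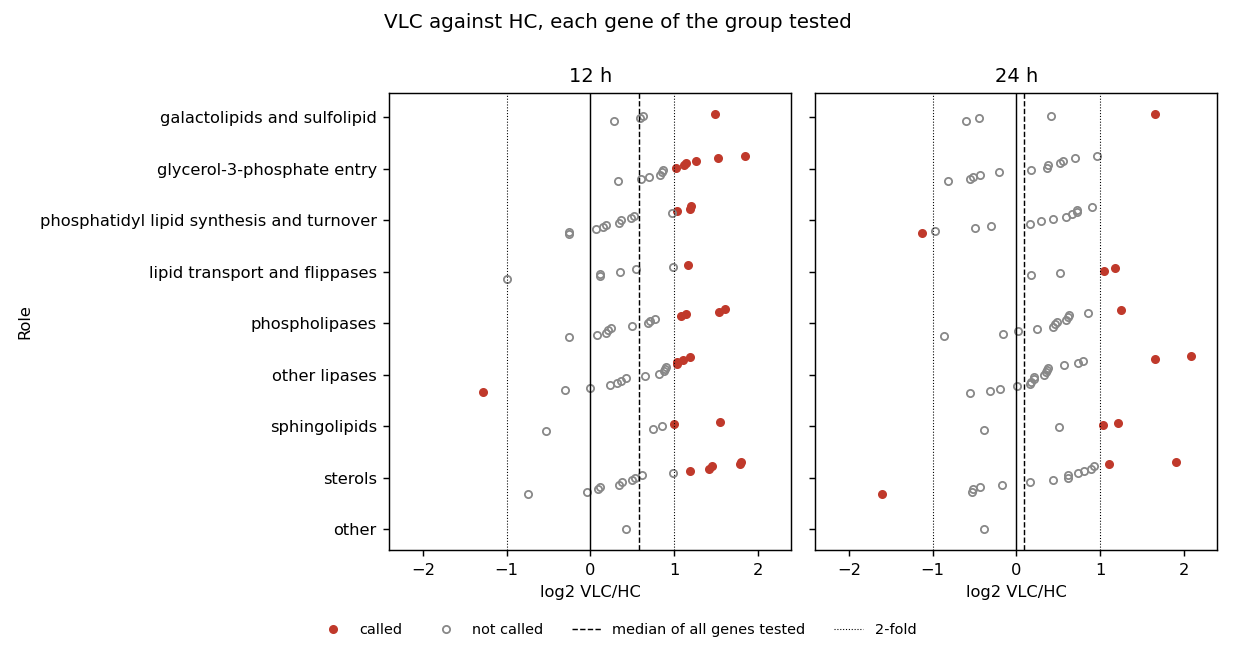
Log2 VLC/HC (x axis) of each gene of the group tested at 12 h (left, 86 genes) and 24 h (right, 81 genes), by role (y axis), as measured, where filled points passed the test and the 2-fold rule. The dashed line is the median of all genes tested, 0.58 at 12 h and 0.09 at 24 h, and the dotted lines are 2-fold. At 12 h 76 of the 86 points lie above 0, and at 24 h 58 of 81. Among all genes tested, 6541 of 8409 lie above 0 at 12 h and 4615 of 8220 at 24 h.

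The 4 plastid lipid synthases differed from each other, and SQD2 was called at more times than any other of the 96 genes. SQD1 and SQD2 make SQDG in sequence, SQD1 as UDP-sulfoquinovose synthase and SQD2 as the sulfoquinovosyltransferase. A further gene, g2974, carries the annotation UDP-glucose 4-epimerase/UDP-sulfoquinovose synthase. It did not match the words of the choice, and its values are not given here. MGDG synthase adds galactose to diacylglycerol, and DGDG synthase adds a further galactose to MGDG. On the map, SQD1 (g6664, positions 380714 to 384167), SQD2 (g6721, 523101 to 525467) and DGDG synthase (g6763, 632255 to 634857) lie on the same scaffold, scaffold00247, and MGDG synthase (g4968, 375270 to 376901) on scaffold00145.

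SQD2 had 10.4 and 10.9 FPKM at 0 h. It had 30.4 and 30.9 FPKM in VLC at 3 h, against 10.8 and 15.2 FPKM in HC, and at 6 h 30.4 and 32.1 FPKM in VLC, against 16.1 and 17.9 FPKM in HC. The VLC libraries were above the HC libraries at both times. At 12 h SQD2 had 34.0 and 35.8 FPKM in VLC, against 11.5 and 12.1 FPKM in HC, and at 24 h 89.3 and 93.5 FPKM in VLC, against 28.5 and 27.9 FPKM in HC. VLC thus had its highest level at 24 h, and no library of VLC overlapped HC at any of the 4 times. The log2 VLC/HC of SQD2 was 1.20 ± 0.12 at 3 h (SE, limma adjusted p = 1.8e-05), 0.84 ± 0.12 at 6 h (adjusted p = 2e-04), 1.49 ± 0.12 at 12 h (adjusted p = 4.1e-08) and 1.66 ± 0.12 at 24 h (adjusted p = 2e-08). The difference at 6 h was under 2-fold, and that at 12 h was 0.91 when centred, also under 2-fold. At 3 h the call rested on the spread pooled over all groups and on replicate 1 of HC, since the adjusted p was 0.074 in a limma fit of the 4 libraries alone and the log2 VLC/HC was 0.97 without that library.

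SQD1 had 2.17 and 1.82 FPKM at 0 h and more in every later library. It had 19.9 and 19.1 FPKM in VLC at 3 h, against 10.5 and 8.85 FPKM in HC, and 62.6 and 61.7 FPKM in VLC at 6 h, against 32.4 and 32.2 FPKM in HC. At 12 h it had 28.8 and 26.5 FPKM in VLC, against 17.2 and 18.9 FPKM in HC, and at 24 h 51.7 and 51.5 FPKM in VLC, against 79.0 and 78.1 FPKM in HC. The VLC libraries were above HC up to 12 h and below it at 24 h. The log2 VLC/HC was 0.95 ± 0.09, 0.92 ± 0.09 and 0.59 ± 0.09 at 3, 6 and 12 h and -0.60 ± 0.09 at 24 h (limma adjusted p = 1.8e-05, 9e-06, 4.1e-05 and 5.5e-05). Centred, the value at 12 h was 0.0, so that SQD1 then lay at the median gene. Each was under 2-fold and none was called, though at 3 h the value was 1.06 without replicate 1 of HC and was then called. Against 0 h, SQD1 was called in VLC at 24 h with a log2 of 4.13 ± 0.09 (limma adjusted p = 1.3e-13) and in HC at 24 h with 4.73 ± 0.09 (adjusted p = 1.3e-13).

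The galactolipid synthases stayed under 2-fold between VLC and HC. MGDG synthase had 122 and 127 FPKM in VLC at 3 h, against 69.1 and 102.7 FPKM in HC, and 106 and 107 FPKM in VLC at 24 h, against 146 and 146 FPKM in HC. Its log2 VLC/HC was 0.56 ± 0.15 at 3 h (limma adjusted p = 0.026) and -0.45 ± 0.15 at 24 h (adjusted p = 0.017), so the sign at 24 h was opposite to that at 3 h. DGDG synthase had 91.2 and 88.3 FPKM in VLC at 12 h, against 57.2 and 57.7 FPKM in HC, and 96.5 and 92.0 FPKM in VLC at 24 h, against 70.6 and 71.2 FPKM in HC. Its log2 VLC/HC was 0.63 ± 0.06 at 12 h (limma adjusted p = 5.2e-07), which is 0.05 when centred, and 0.41 ± 0.06 at 24 h (adjusted p = 6.9e-05). At 24 h, SQD2 and DGDG synthase had more transcript in VLC, and SQD1 and MGDG synthase less.

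**Figure D2:**
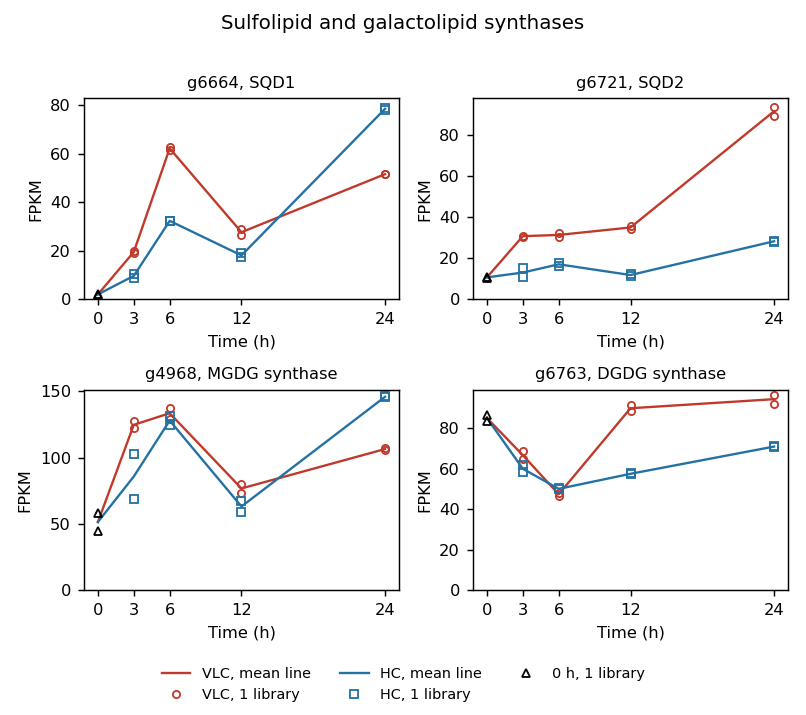
FPKM (y axis, from 0) over time in h (x axis) of SQD1, SQD2, MGDG synthase and DGDG synthase, with 1 point for each library, lines through the means of the 2 libraries of VLC and HC, and the shared 0 h libraries as triangles. SQD2 in VLC reaches 89.3 and 93.5 FPKM at 24 h while HC stays at 28.5 and 27.9 FPKM, and SQD1 as measured is above HC up to 12 h and below it at 24 h.

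Genes annotated with glycerol-3-phosphate, most of which supply or acylate it, were higher in VLC at 12 h in 6 of the 12 members. All 12 were tested, and the share among all genes was 27.6%. When centred, 1 of 12 was higher at 12 h, beside 8.85%, and none was called at 3, 6 or 24 h. The unadjusted limma p was under 0.05 in 3, 2, 12 and 11 of the 12 at 3, 6, 12 and 24 h. Among all genes tested it was so in 2510 of 7845, 2082 of 7932, 6813 of 8409 and 5613 of 8220. The median log2 VLC/HC of the 12 was 0.94 at 12 h (0.36 when centred) and 0.27 at 24 h. The largest difference at 12 h was in g1669, a glycerol-3-phosphate dehydrogenase, the enzyme that links this pool to dihydroxyacetone phosphate. It had 20.9 and 21.5 FPKM in VLC, against 5.25 and 5.17 FPKM in HC, a log2 VLC/HC of 1.84 ± 0.15 (SE, limma adjusted p = 6e-08) and of 1.25 when centred, still over 2-fold. At 0 h it had 8.45 and 5.77 FPKM, and its log2 HC 12 h/0 h of -0.37 was 0.16 when centred. A further member, g10360, is annotated as a CDP-diacylglycerol-glycerol-3-phosphate 3-phosphatidyltransferase, which neither supplies nor acylates glycerol-3-phosphate. It was not called in VLC/HC at any time. Its means were 19.2 FPKM in VLC and 29.9 FPKM in HC at 3 h, and 35.4 and 38.9 FPKM at 6 h.

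The glycerol-3-phosphate O-acyltransferase g9778, which loads the first acyl chain, had 46.4 and 41.2 FPKM in VLC at 12 h, against 14.7 and 14.4 FPKM in HC (log2 1.52 ± 0.11, limma adjusted p = 2.5e-08). Of the 4 genes annotated as 1-acyl-glycerol-3-phosphate acyltransferases, which add the next chain and yield phosphatidic acid, 3 were called at 12 h. The one annotated after an apicoplast enzyme, g5355, had 38.0 and 47.0 FPKM in VLC, against 16.8 and 17.2 FPKM in HC (log2 1.26 ± 0.22, adjusted p = 9.5e-05). The other 2 were g1905 (log2 1.14 ± 0.09) and g5448 (1.02 ± 0.14). A glycerol-3-phosphate transporter gene, g9342, was at 1.12 ± 0.15. Centred on the median gene, these 5 values were 0.94, 0.68, 0.56, 0.43 and 0.54, all under 2-fold, and g5448 was at 0.95 without replicate 1 of HC at 12 h.

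The other 4 dehydrogenase genes of this role had lower means in VLC at 24 h, each by under 2-fold. The most abundant of them, g6091, had 150 and 143 FPKM in VLC at 12 h, against 80.5 and 81.3 FPKM in HC, and 74.8 and 80.3 FPKM in VLC at 24 h, against 109 and 114 FPKM in HC. The sign of its difference thus turned between the 2 times, with 0.85 at 12 h (0.26 when centred). g3658 had 72.4 and 75.9 FPKM in VLC at 24 h, against 132 and 131 FPKM in HC (log2 -0.82 ± 0.09, limma adjusted p = 1.7e-06). The log2 VLC/HC at 24 h was -0.52 ± 0.18 in g6091 (adjusted p = 0.019) and -0.55 ± 0.11 in g2484 (adjusted p = 0.00057), while g1669 was at 0.56 ± 0.15 (adjusted p = 0.0047). The acyltransferase g7724 was lower than at 0 h in both arms, with 17.5 and 18.4 FPKM in VLC at 24 h and 11.7 and 9.70 FPKM in HC, against 49.6 and 55.0 FPKM at 0 h. Its log2 ratio to 0 h at 24 h was -1.49 ± 0.11 in VLC (limma adjusted p = 2.1e-08) and -2.19 ± 0.11 in HC (adjusted p = 6.2e-10).

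Phosphatidyl lipid synthesis and turnover held 3 genes higher in VLC at 12 h of 13 tested (27.6% of all genes) and 1 lower at 24 h of 12 tested (5.95%), and, centred, 0 at 12 h and 2 lower at 24 h. The gene called lower at 24 h, g3839, is annotated as a SAC1-like phosphatase, a family that removes phosphate from phosphatidylinositol phosphates. It had 17.4 and 18.5 FPKM in VLC at 24 h, against 40.8 and 40.1 FPKM in HC, with no overlap and a log2 VLC/HC of -1.13 ± 0.08 (SE, limma adjusted p = 3.2e-08). Another SAC1-like gene, g827, had the opposite sign, with 36.7 and 37.0 FPKM in VLC at 24 h, against 19.7 and 18.9 FPKM in HC (log2 0.90 ± 0.09, adjusted p = 1e-06, under 2-fold).

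At 12 h g827 was called with a log2 VLC/HC of 1.03 ± 0.09, but it lay under 2-fold without replicate 1 of HC (0.93) or replicate 2 of VLC (0.95). The others called at 12 h were g10099, a CDP-alcohol phosphatidyltransferase of the family that joins an alcohol head group to a phosphatidyl unit, and g4303, a PigA-like gene of glycosyl-phosphatidylinositol synthesis. g10099 had 14.6 and 13.7 FPKM in VLC, against 5.59 and 5.55 FPKM in HC (log2 1.20 ± 0.12, limma adjusted p = 3.8e-07), and g4303 had a log2 of 1.19 ± 0.11 (adjusted p = 2.6e-07). The centred values of g827, g10099 and g4303 were 0.44, 0.62 and 0.60. A further CDP-alcohol phosphatidyltransferase, g7574, had 6.24 and 6.52 FPKM in VLC at 24 h, against 13.1 and 13.7 FPKM in HC (log2 -0.97 ± 0.09, adjusted p = 4.6e-07). It was just under 2-fold as measured and over it when centred (-1.06). The 1 gene outside these roles, the cyclopropane-fatty-acyl-phospholipid synthase-like g10216, had 47.1 and 46.9 FPKM in VLC at 24 h, against 61.1 and 62.4 FPKM in HC (log2 -0.39 ± 0.10, adjusted p = 0.0028), also under 2-fold.

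Lipid transport and flippase genes had 1 member higher in VLC of 7 tested at 12 h and 2 of 4 tested at 24 h, beside 27.6% and 11.2% of all genes. When centred, 0 were higher and 1 was lower at 12 h, and 1 was higher at 24 h. The flippase g10152, annotated as phospholipid-transporting ATPase IA, a P-type pump that moves aminophospholipids to the inner leaflet, had 21.2 and 19.8 FPKM in VLC at 24 h, against 9.08 and 7.96 FPKM in HC. The groups did not overlap, and the log2 VLC/HC was 1.18 ± 0.08 (SE, limma adjusted p = 1e-08). The SEC14-type phosphatidylinositol transfer gene g8430 had 11.6 and 11.1 FPKM in VLC at 24 h, against 5.44 and 4.59 FPKM in HC (log2 1.04 ± 0.12, adjusted p = 3.4e-06), and it lay at 0.95 when centred and at 0.94 without replicate 2 of HC. At 12 h the transfer protein gene g1869 had 33.3 and 33.0 FPKM in VLC, against 14.7 and 13.7 FPKM in HC (log2 1.17 ± 0.12, adjusted p = 7.6e-07, 0.58 when centred). g773 carries the same annotation and had the opposite sign at 12 h, with 59.6 and 69.1 FPKM in VLC, against 131 and 127 FPKM in HC. Its log2 VLC/HC was -1.0 ± 0.12 (adjusted p = 3.3e-06), short of 2-fold before rounding and therefore not called, and -1.58 when centred. The flippase g171 was at 0.98 ± 0.10 at 12 h (0.39 when centred) and 0.17 ± 0.10 at 24 h.

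Phospholipases held 4 genes higher in VLC of 13 tested at 12 h, 1 of 12 tested at 24 h and 0 lower at either time, beside 27.6% and 11.2% higher among all genes. Centred, it was 1 at each time. Their median log2 VLC/HC was 0.69 at 12 h and 0.47 at 24 h, or 0.11 and 0.38 when centred. At 12 h the calcium-independent phospholipase A2-gamma-like g798, of a family that cuts an acyl chain off phospholipids, had 62.3 and 65.1 FPKM in VLC, against 23.2 and 17.4 FPKM in HC. Its log2 VLC/HC was 1.61 ± 0.17 (SE, limma adjusted p = 6.7e-07) and 1.03 when centred. At 0 h it had 1.14 and 0.81 FPKM, and at 24 h 33.0 and 33.4 FPKM in VLC, against 23.6 and 23.3 FPKM in HC. Both arms were thus far above 0 h, with a log2 of 4.12 ± 0.17 in VLC (adjusted p = 2.4e-11) and 3.63 ± 0.17 in HC (adjusted p = 1.9e-10) at 24 h.

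The other phospholipases called at 12 h were g9141, with the same annotation as g798 (log2 1.53 ± 0.11), and the lysophospholipase or phospholipase genes g272 (1.14 ± 0.10) and g4395 (1.08 ± 0.09). Their centred values were 0.95, 0.56 and 0.50. At 24 h the patatin-like phospholipase g8085, of a family of acyl hydrolases named after a potato storage protein, had 20.5 and 20.9 FPKM in VLC, against 8.16 and 8.03 FPKM in HC. Its log2 VLC/HC was 1.25 ± 0.13 (limma adjusted p = 1.3e-06), and at 12 h it was 0.69 ± 0.13 (0.11 when centred), with 68.0 and 69.4 FPKM in VLC, against 43.0 and 41.4 FPKM in HC. The phospholipase/carboxylesterase gene g5222 was listed at 0 in both 0 h libraries and had 36.1 and 37.5 FPKM in VLC at 24 h, against 26.0 and 27.2 FPKM in HC. At 12 h it was below the test minimum in both arms, with 6.14 and 8.35 FPKM in VLC, against 0.56 and 1.96 FPKM in HC.

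Lysophospholipases cut off the acyl chain that remains, and 2 of the genes so annotated had less transcript in VLC at 24 h without a call. Of the others so annotated, g272 and g9804 had the opposite sign at 24 h, with more transcript in VLC and also without a call. The remaining gene with this annotation is not shown at 24 h. Of the 12 phospholipase genes tested then, 10 had a log2 VLC/HC above 0, beside 4615 of 8220 among all genes. The most abundant phospholipase gene, the lysophospholipase II-like g2946, had 46.6 and 41.6 FPKM in VLC, against 81.1 and 81.3 FPKM in HC (log2 -0.87 ± 0.10, limma adjusted p = 3e-06). g9755 had 2.72 and 3.00 FPKM in VLC, against 8.10 and 11.4 FPKM in HC, a log2 of -1.46 ± 0.15 that was not tested because neither mean reached 10 FPKM, and that was called with a minimum of 1 FPKM (adjusted p = 1.1e-06). At 0 h g9755 had 19.4 and 24.1 FPKM, and its log2 ratio to 0 h at 24 h was -2.55 ± 0.15 in VLC (adjusted p = 9.3e-10) and -1.10 ± 0.15 in HC (adjusted p = 1.1e-05).

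Among the other lipases, 2 of 17 were higher in VLC at 24 h and 0 lower, beside 11.2% and 5.95% of all genes, and both stayed called when centred. g3858, a partial lipase domain protein on scaffold00104 (positions 244635 to 247869), had 45.3 and 49.0 FPKM in VLC at 24 h, against 11.3 and 9.56 FPKM in HC. This was the largest difference of the 81 genes tested at 24 h, with a log2 VLC/HC of 2.08 ± 0.09 (SE, limma adjusted p = 8.1e-11). At 12 h it had 48.6 and 48.9 FPKM in VLC, against 47.8 and 50.4 FPKM in HC, which overlapped (log2 -0.01 ± 0.09, -0.60 when centred), and at 0 h 50.8 and 55.2 FPKM. At 24 h VLC was thus near the level of 0 h and HC below it (log2 HC 24 h/0 h -2.24 ± 0.09, adjusted p = 3.1e-11). The GDSL lipase g7781, of a hydrolase family named after its active-site motif, showed the same order with 54.9 and 59.1 FPKM in VLC at 24 h, against 17.1 and 17.7 FPKM in HC, and 49.98 and 47.5 FPKM at 0 h. Its log2 VLC/HC was 1.65 ± 0.09 at 24 h (adjusted p = 9.3e-10) and 0.32 ± 0.09 at 12 h, where the centred value was -0.26 and so had the opposite sign.

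At 12 h 4 of 16 lipases were higher in VLC and 1 lower, beside 27.6% and 4.36% of all genes, and when centred 0 and 1. The lower one, g1126, an esterase/lipase domain protein and the most abundant lipase gene, was below HC at all 4 times. It had 98.2 and 108 FPKM in VLC at 3 h, against 186 and 196 FPKM in HC, and 124 and 111 FPKM in VLC at 6 h, against 196 and 200 FPKM in HC. At 12 h it had 113 and 131 FPKM in VLC, against 305 and 288 FPKM in HC, and at 24 h 80.8 and 79.97 FPKM in VLC, against 119 and 118 FPKM in HC. No library of VLC overlapped HC, and the level at 0 h was 81.8 and 80.7 FPKM. The log2 VLC/HC of g1126 was -0.88 ± 0.08, -0.75 ± 0.08, -1.28 ± 0.08 and -0.55 ± 0.08 at 3, 6, 12 and 24 h (limma adjusted p = 1.2e-05, 1.9e-05, 5.5e-09 and 3.6e-05), of which the value at 12 h was over 2-fold. The centred value at 12 h was -1.86.

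Of those higher at 12 h, the hormone-sensitive lipase-like g5370, named after an animal enzyme that breaks down acylglycerols, had 30.2 and 32.1 FPKM in VLC, against 12.9 and 13.3 FPKM in HC (log2 1.19 ± 0.12, limma adjusted p = 4.3e-07). It was above HC at all 4 times, with log2 values of 0.72, 0.58 and 0.80 at 3, 6 and 24 h. The others were g5148 (log2 1.10 ± 0.11), g7132 (1.03 ± 0.12) and g3283 (1.03 ± 0.11), each annotated as a lipase. Centred, these 4 lay at 0.60, 0.51, 0.44 and 0.45, under 2-fold. As measured, g5148 lay at 0.95 without replicate 1 of HC at 12 h, g3283 at 0.88 without replicate 2 of HC, and g7132 at 0.91 without replicate 1 of HC and 0.90 without replicate 2 of VLC. The lipase g6212 was lower than 0 h at 24 h in both arms, with 26.3 and 24.8 FPKM in VLC and 16.92 and 16.95 FPKM in HC, against 61.9 and 65.8 FPKM at 0 h. The log2 ratio to 0 h was -1.29 ± 0.12 in VLC (adjusted p = 2.8e-07) and -1.85 ± 0.12 in HC (adjusted p = 9.2e-09).

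**Figure D3:**
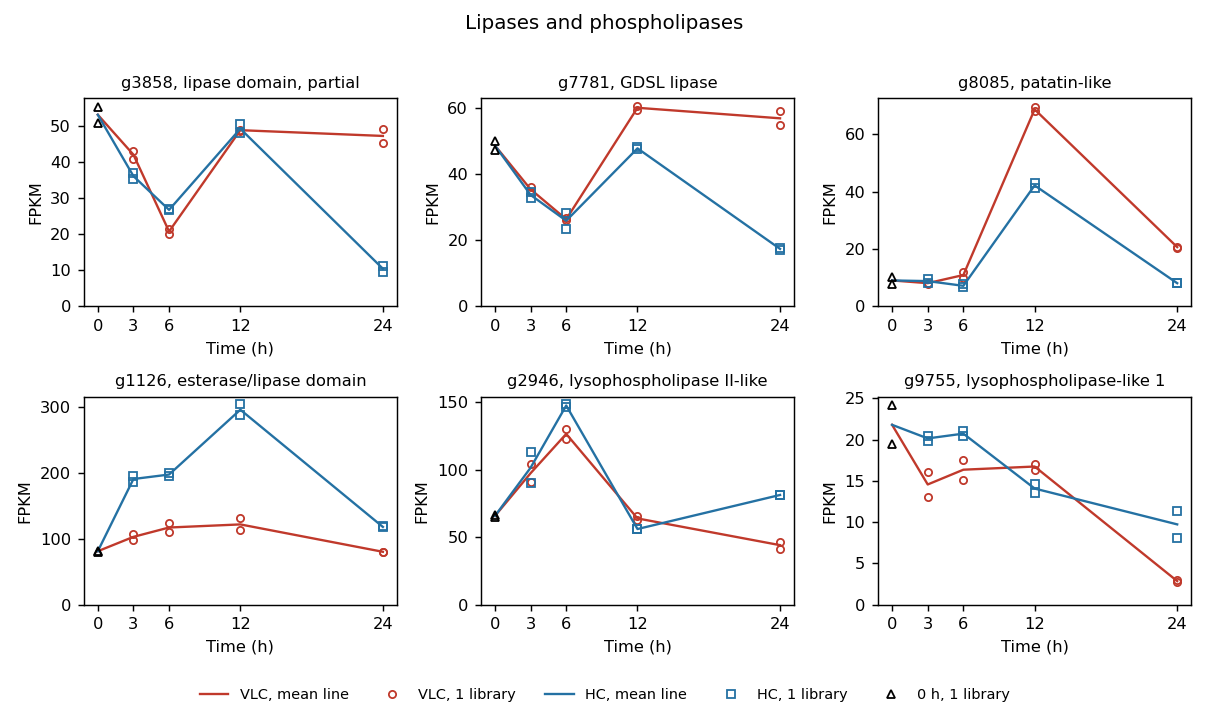
FPKM (y axis, from 0) over time in h (x axis) of 3 other lipases (g3858, g7781, g1126) and 3 phospholipases (g8085, g2946, g9755), with 1 point for each library and lines through the means of the 2 libraries of VLC and HC. At 24 h g3858, g7781 and g8085 are above HC and g1126, g2946 and g9755 below it, and g1126 in HC reaches 305 and 288 FPKM at 12 h.

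Sphingolipid genes, 5 in number, held 2 higher in VLC of 5 tested at 12 h and 2 of 4 tested at 24 h, beside 27.6% and 11.2% of all genes. Centred, 0 were higher and 1 was lower at 12 h, and 1 was higher at 24 h. The acid sphingomyelinase-like phosphodiesterase g4819, whose animal relatives cut head groups or phosphates off lipids and nucleotides, had 47.1 and 40.1 FPKM in VLC at 12 h, against 15.1 and 13.3 FPKM in HC. At 24 h it had 78.4 and 78.7 FPKM in VLC, against 38.6 and 37.5 FPKM in HC, and at 0 h 97.4 and 104 FPKM. In g4819 the log2 VLC/HC was 1.55 ± 0.09 at 12 h (SE, limma adjusted p = 3.1e-09) and 1.03 ± 0.09 at 24 h (adjusted p = 2.7e-07), or 0.97 and 0.93 when centred, under 2-fold at both times.

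The sphingosine-1-phosphate lyase-like g9227, the enzyme that ends sphingolipid breakdown, had 35.0 and 34.0 FPKM in VLC at 24 h, against 16.0 and 12.8 FPKM in HC (log2 1.21 ± 0.12, limma adjusted p = 1e-06). At 0 h it had 35.8 and 36.2 FPKM, so that VLC at 24 h was near 0 h and HC below it. The 3-ketodihydrosphingosine reductase g4063, of the start of sphingolipid synthesis, was at 1.00 ± 0.09 at 12 h (adjusted p = 1.9e-07), called by a small margin, not called when centred (0.42), and not without replicate 2 of HC (0.94) or replicate 1 of VLC (0.98). The sphingosine-1-phosphate phosphatase g4490 had 10.3 and 10.3 FPKM in VLC at 24 h, against 13.9 and 13.7 FPKM in HC (log2 -0.39 ± 0.18, adjusted p = 0.069). Lactosylceramide galactosyltransferase-like g6550 had 19.1 and 17.8 FPKM in VLC at 12 h, against 26.4 and 27.8 FPKM in HC, a log2 of -0.53 ± 0.20 as measured and -1.11 when centred.

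Sterol genes included 5 that were higher in VLC of 15 tested at 12 h, and 2 higher and 1 lower of 15 at 24 h, beside 27.6% of all genes higher at 12 h. At 24 h 11.2% of all genes were higher and 5.95% lower. When centred the sterol counts were 2 higher and 1 lower at 12 h and the same counts as measured at 24 h. Sterols are made from squalene, which squalene monooxygenase oxidizes before the ring closes, and sterol methyltransferases then add carbon to the side chain in algae, plants and fungi. The methyltransferase g4284 had 83.9 and 80.5 FPKM in VLC at 12 h, against 22.1 and 23.5 FPKM in HC, and 149 and 151 FPKM in VLC at 24 h, against 96.4 and 99.5 FPKM in HC. A further methyltransferase, g7986, had 66.7 and 65.8 FPKM in VLC at 12 h, against 19.0 and 18.1 FPKM in HC, and 106 and 104 FPKM in VLC at 24 h, against 67.7 and 68.4 FPKM in HC. VLC was above HC in every library at both times, while at 3 and 6 h the 2 genes differed by a log2 of 0.17 or less.

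At 12 h the log2 VLC/HC was 1.80 ± 0.09 in g4284 (limma adjusted p = 6.2e-10) and 1.78 ± 0.06 in g7986 (adjusted p = 7.3e-11), or 1.22 and 1.20 when centred. At 24 h it was 0.61 ± 0.09 and 0.62 ± 0.06, under 2-fold. Another methyltransferase, g7669, had 128 and 112 FPKM in VLC at 12 h, against 53.2 and 50.4 FPKM in HC (log2 1.19 ± 0.08), and squalene monooxygenase (g2065) had 55.5 and 52.7 FPKM in VLC, against 18.5 and 21.1 FPKM in HC (log2 1.41 ± 0.10). These were at 0.60 and 0.82 when centred.

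The sterol glucosyltransferase g9985, which adds glucose from UDP-glucose to sterols to make the glycolipids of cell membranes, had 48.4 and 50.8 FPKM in VLC at 12 h, against 18.0 and 17.0 FPKM in HC. At 24 h it had 67.4 and 66.5 FPKM in VLC, against 17.6 and 16.8 FPKM in HC, and at 0 h 4.50 and 4.60 FPKM. The level in HC stayed near that of 6 h, 16.4 and 17.7 FPKM, while VLC was higher at 12 and 24 h. In g9985 the log2 VLC/HC was 1.45 ± 0.10 at 12 h (SE, limma adjusted p = 1.1e-08), which was 0.87 when centred, and 1.90 ± 0.10 at 24 h (adjusted p = 9.2e-10), which was 1.81 relative to it.

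C-14 sterol reductase (g6702), which acts after the ring has closed, was the only sterol gene called lower in VLC as measured, at 24 h. It had 26.5 and 22.6 FPKM at 0 h and peaked in both arms at 6 h, with 154 and 146 FPKM in VLC, against 191 and 194 FPKM in HC. At 24 h it had 11.93 and 11.90 FPKM in VLC, against 38.8 and 38.0 FPKM in HC, and the log2 VLC/HC was -1.61 ± 0.09 (limma adjusted p = 1.5e-09). A pair of abundant sterol genes had far less transcript at 12 h than at 0 h. The 24-dehydrocholesterol reductase-like g2385, the most abundant sterol gene, had 197 and 201 FPKM at 0 h, 40.9 and 36.6 FPKM in VLC at 12 h, against 25.0 and 24.6 FPKM in HC, and 62.3 and 62.1 FPKM in VLC at 24 h, against 88.3 and 92.0 FPKM in HC. The gene for isopentenyl-diphosphate isomerase fused to squalene synthase, g8550, had 185 and 194 FPKM at 0 h and at 12 h 20.6 and 19.2 FPKM in VLC, against 8.76 and 10.5 FPKM in HC. Both were lower than 0 h in either arm at 12 h, with a log2 ratio to 0 h of -2.33 ± 0.07 in VLC and -2.95 ± 0.07 in HC for g2385 and of -3.19 ± 0.08 in VLC and -4.17 ± 0.08 in HC for g8550 (limma adjusted p = 1.7e-12, 1.5e-13, 4.7e-13 and 3.3e-14).

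The sterol words also brought in g9491, an ABC transporter annotated as a cholesterol/phospholipid flippase, and g3811, a lecithin-cholesterol acyltransferase-like gene. g9491 had 21.7 and 22.8 FPKM in VLC at 24 h, against 9.57 and 10.2 FPKM in HC (log2 1.10 ± 0.09, limma adjusted p = 1.2e-07). g3811 had 19.5 and 23.1 FPKM in VLC at 12 h, against 37.1 and 35.6 FPKM in HC, and 10.6 and 9.49 FPKM in VLC at 24 h, against 5.26 and 5.36 FPKM in HC. It was below HC at 12 h and above it at 24 h, with a log2 VLC/HC of -0.75 ± 0.14 and 0.81 ± 0.14 (adjusted p = 0.00019 and 0.00015), both under 2-fold, and the value at 12 h was -1.33 when centred.

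**Figure D4:**
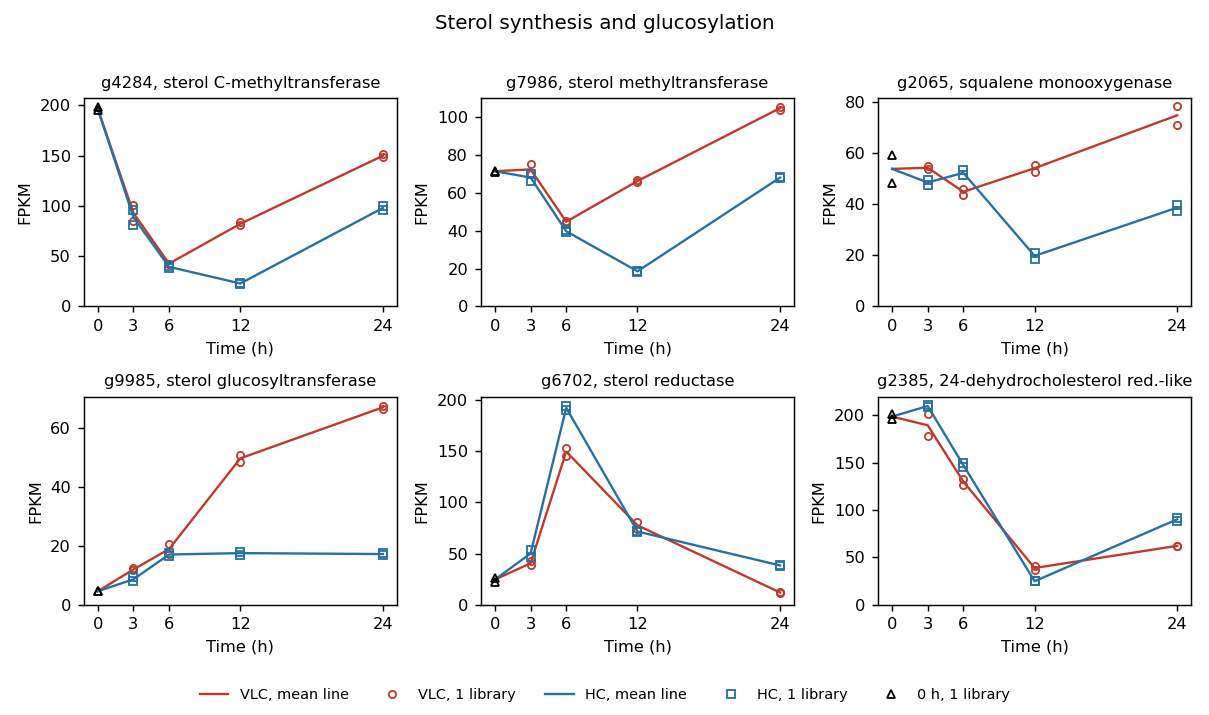
FPKM (y axis, from 0) over time in h (x axis) of 6 sterol genes, with 1 point for each library, lines through the means of the 2 libraries of VLC and HC, and the shared 0 h libraries as triangles. g4284, g7986 and g2065 in HC are lowest at 12 h (22.1 and 23.5 FPKM in g4284) while g9985 in VLC goes up to 67.4 and 66.5 FPKM, and g6702 peaks at 6 h in both arms.

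More of these genes were called against 0 h than between VLC and HC, at each time and in either arm. The same held among all genes tested, so it is not particular to the lipid genes. In VLC, genes higher and lower than at 0 h were 7 and 4 of 74 tested at 3 h (all genes 9.95% and 4.87%), 16 and 11 of 84 at 6 h (21.1% and 16.5%), 30 and 12 of 88 at 12 h (28.8% and 15.6%) and 19 and 8 of 83 at 24 h (20.8% and 14.8%). In HC they were 6 and 2 of 76 at 3 h (8.18% and 3.71%), 14 and 8 of 77 at 6 h (20.5% and 15.7%), 20 and 26 of 84 at 12 h (22.4% and 36.4%) and 14 and 17 of 79 at 24 h (14.0% and 11.3%). At 3 h the genes lower than at 0 h were 2 without replicate 2 of VLC and 1 without replicate 2 of HC. In HC at 12 h, where the median gene was at a log2 of -0.52 against 0 h, the counts relative to it were 27 and 12, against 30.1% and 21.4% of all genes. Of the 89 genes fitted, 33 had their highest mean of the VLC course at 12 h, against 26.7% of all genes, and 20 of the HC course, against 21.1%. The 2 arms share the 0 h libraries, so each arm is given by its own values.

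A set of genes was picked for display, after their values were seen, as highest at 12 h in VLC and in HC. Other genes, such as g8085 and g3811 described above, also peaked then in both arms. Phosphatidylinositol synthase (g1076), which joins inositol to CDP-diacylglycerol, had 267 and 271 FPKM in VLC at 12 h and 339 and 306 FPKM in HC, against 21.3 and 22.6 FPKM at 0 h. Its log2 ratio to 0 h was 3.55 ± 0.09 in VLC and 3.81 ± 0.09 in HC (SE, limma adjusted p = 4.7e-13 and 1.5e-13), and at 24 h it had 34.2 and 37.2 FPKM in VLC, against 21.4 and 21.1 FPKM in HC. The transfer protein g773 had 16.0 and 12.8 FPKM at 0 h. Phospholipase D (g8661), which frees phosphatidic acid from phospholipids, had 50.9 and 53.0 FPKM in VLC at 12 h and 49.8 and 48.2 FPKM in HC, against 8.17 and 7.60 FPKM at 0 h.

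The P-type flippase genes g1230 (positions 641228 to 643160) and g1231 (643216 to 644790) are next to each other on scaffold00026. g1230 had 38.0 and 38.3 FPKM in VLC at 12 h and 35.6 and 35.0 FPKM in HC, against 1.55 and 2.78 FPKM at 0 h. g1231 had 49.3 and 53.2 FPKM in VLC at 12 h and 49.1 and 45.7 FPKM in HC, against 3.53 and 2.33 FPKM at 0 h. At 24 h, below the test minimum, g1230 had 8.50 and 9.14 FPKM in VLC, against 3.94 and 3.24 FPKM in HC, and g1231 9.07 and 9.05 FPKM in VLC, against 2.88 and 3.79 FPKM in HC. The lysophospholipase-like g9804 had 27.4 and 28.3 FPKM in VLC at 12 h and 32.2 and 34.8 FPKM in HC, against 5.76 and 4.45 FPKM at 0 h. Of these 6 genes none was called between VLC and HC at 12 h as measured, beside 27.6% higher and 4.36% lower among all genes, and g773 was lower when centred. As the genes were picked for high values in both arms, this count is no result about them.

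**Figure D5:**
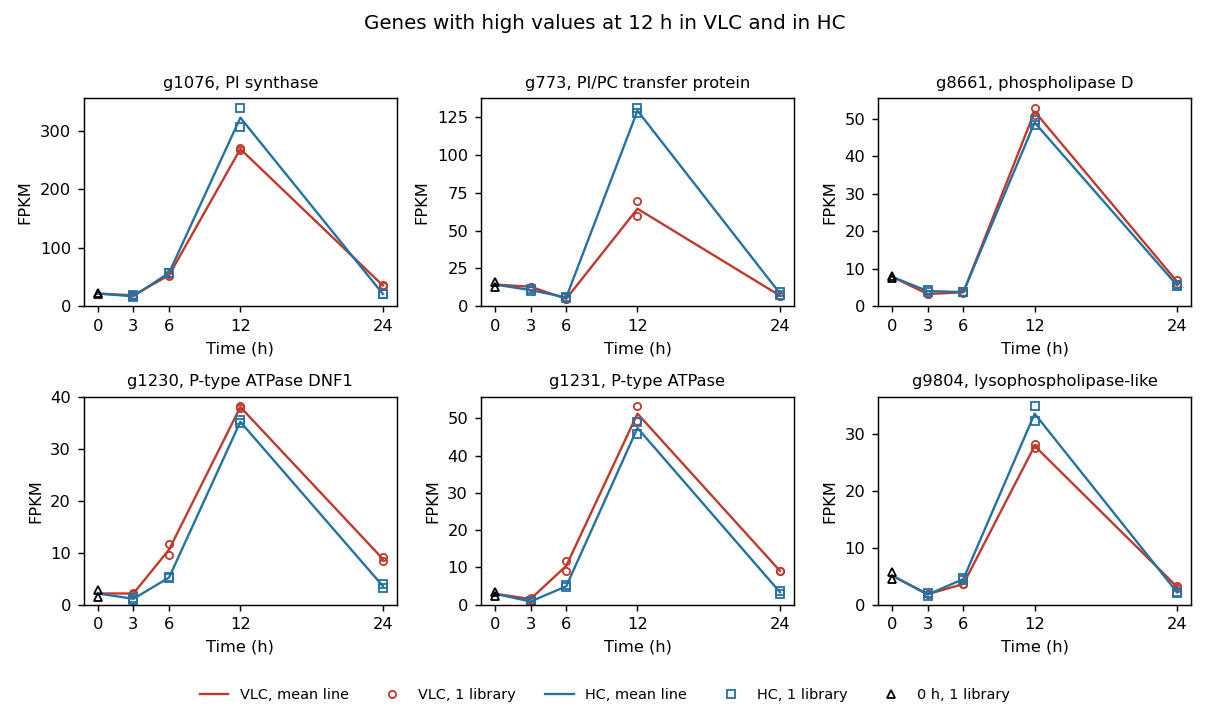
FPKM (y axis, from 0) over time in h (x axis) of 6 genes chosen for high values at 12 h in VLC and in HC, with 1 point for each library and lines through the means of the 2 libraries of VLC and HC. The points of VLC and HC lie close together at 12 h in g8661, g1230, g1231 and g9804, and g773 in HC (131 and 127 FPKM) is above VLC (59.6 and 69.1 FPKM).

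Whether VLC/HC differed between 24 h and 12 h was tested on centred ratios. Of 89 genes, 15 had a higher VLC/HC at 24 h than at 12 h and 3 a lower one, against 11.4% and 6.14% of all genes tested. As measured the counts were 4 and 24, against 6.14% and 25.3%. The largest rise was in the lipase g3858, with a log2 difference of 2.58 ± 0.12 (SE, limma adjusted p = 2.1e-09), followed by 2.05 ± 0.20 in the acyltransferase-like g3811 (adjusted p = 1.3e-06) and 1.82 ± 0.12 in the GDSL lipase g7781 (adjusted p = 3.8e-08). Of the 7 transport and flippase genes tested, 4 were among the 15, namely g10152, g1230, g1231 and g773. As measured only g1231 of them was called, with a log2 difference of 1.11, while g10152 was at 0.83, g1230 at 0.99 and g773 at 0.76. The falls were in C-14 sterol reductase g6702 (-1.23 ± 0.12, adjusted p = 2.2e-06), the lysophospholipase-like g9755 (-1.20 ± 0.21, adjusted p = 2.4e-04) and the SAC1-like g3839 (-1.13 ± 0.12, adjusted p = 2.6e-06). SQD2 had 0.66 ± 0.16 and was not called.

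Another 59 genes of these and neighbouring pathways are not among the 96, such as phosphatidylinositol kinases, diacylglycerol acyltransferases, cycloartenol synthases and farnesyl pyrophosphate synthase. Of these, 0 of 46 were called at 3 h and 0 of 47 at 6 h in limma, with an unadjusted p under 0.05 in 18 and 14. Among all genes tested, 2510 of 7845 and 2082 of 7932 had such a p. At 12 h 21 of 51 were higher and 0 lower, beside 27.6% and 4.36% of all genes, or 4 and 1 when centred, beside 8.85% and 11.4%. At 24 h 4 of 52 were higher and 1 lower, beside 11.2% and 5.95%. Their median log2 VLC/HC was 0.91 at 12 h, or 0.33 when centred, and 0.31 at 24 h.

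Among the 96 genes, 7 did not reach a mean of 10 FPKM in any group and were not fitted. They are the lipid transfer genes g5471 and g5472, next to each other on scaffold00182, the phosphatidylglycerophosphate synthase g1019, the phospholipase genes g2582, g2415 and g1331 and the methylsterol oxidase g3542. None of the 96 overlaps another gene, and their median level over all libraries was 25.7 FPKM, against 26.4 FPKM for all genes.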

How the data were processed

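Reads were mapped by the authors with TopHat2 2.0.4 on the genome of strain IMET1, those with several locations were excluded, and FPKM from Cufflinks were deposited. The submitters' processing notes give Cufflinks version 2.0.2, and the methods name another release. Libraries were not strand-specific. Depth is not in the deposited tables and was not used here. The study's supplement lists uniquely aligned reads for each library, with the fewest in replicate 2 of HC at 12 h. Near-identical gene copies are uncertain because shared reads were left out.

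Here limma 3.58.1 (R 4.3.3, variance trend) was fitted to log2(FPKM + 1) of all 18 libraries in 1 model of 9 groups and 9265 genes. Fold changes on this scale understate those of low genes. Benjamini-Hochberg adjustment was within each of 13 comparisons, over genes with a mean of at least 10 FPKM in either group. Standard errors come from a spread pooled over groups, so the wider spread of HC at 3 h is not given a wider error. For centred ratios, the median over the genes tested in that comparison was subtracted from each log2 ratio. In data simulated for VLC/HC at 12 h, 99 of 100 genes changed 2.5-fold, 100 of 100 changed 4-fold and 0 of 7187 unchanged genes were called. The simulation gave every group the 0 h means and independent noise, with no shift of all genes between libraries. It therefore gives no rate of false calls for the ratios measured at 12 h, where the median gene was shifted.

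Of the genes matched, 18 were dropped by their annotation, and roles were set by annotation words. The members and lists were chosen with earlier results of these data known. A rule named 40 genes: those called at 2 or more times, the 3 largest rises and falls at each time, the most abundant gene and the extremes of each role, the plastid lipid synthases, and the 3 largest changes from 0 h at 24 h in each arm. Another 21 were named after their values were seen: every other gene called in VLC/HC, g2484, g8661, g1230 and g1231. The genes g10360 and g2974 are mentioned for their annotation and are not counted among these. Python 3.11.15, pandas 2.3.3, numpy 2.4.6 and matplotlib 3.10.9 served for tables and plots. Alternatives were a pseudocount of 0.1 FPKM, a minimum of 1 FPKM or none, centring, a replicate block, only the libraries compared, no variance trend and leaving out each library.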

Additional observations from a re-analysis of the deposited data

Results flagged for a closer look

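VLC/HC differed by at least 4-fold between 24 h and 12 h, in the test of that difference on centred ratios, in 2 of the genes named. For the partial lipase domain gene g3858 the log2 difference was 2.58 ± 0.12 (SE, limma adjusted p = 2.1e-09), with log2 VLC/HC at 24 h of 2.08 and at 12 h of -0.01 as measured. For the lecithin-cholesterol acyltransferase-like gene g3811 it was 2.05 ± 0.20 (adjusted p = 1.3e-06), with 0.81 at 24 h and -0.75 at 12 h. As measured, the differences were 2.09 and 1.56.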

How the results depend on the processing

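Of 2684 values of VLC/HC recomputed for the 61 genes named, 36 lost a call, 30 gained one and 0 changed sign while called. The other 2618 kept their state, which counts values not called in either fit as well as calls that were kept. Of the 40 calls of these genes in VLC/HC, 24 were lost and 4 others gained on centred ratios. Of 294 counts recomputed, 275 stayed within 1.5 times. On centred ratios, VLC/HC at 12 h had 4 higher and 4 lower, HC 3 h/0 h 4 lower and HC 12 h/0 h 12 lower. As measured, VLC/HC 24 h minus 12 h had 4 higher and 24 lower. With a pseudocount of 0.1 FPKM, VLC/HC had 2 higher at 3 h, 1 higher at 6 h and 2 lower at 12 h. With a minimum of 1 FPKM or with no filter, 7 were lower in VLC 3 h/0 h and 5 in HC 3 h/0 h, where more genes were tested. With only the libraries compared, 0 were higher in VLC/HC at 3 h. The cause was not tested for the other changes. The replicate block changed no count (26 higher at 12 h and 10 higher at 24 h, as without it) and no call of a named gene. Deviations from the group means of libraries with the same number had correlations of -0.20 to 0.16 over 36 pairs of groups (median -0.007). Of these, 1 was over 0.1 and 2 were under -0.1. Correlations this low cannot tell whether libraries with the same number came from the same culture, since small culture effects would also give them.

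Leaving out 1 library gave, for higher and lower, 1 to 1 and 0 to 0 in VLC/HC at 3 h, 0 to 2 and 0 to 0 at 6 h, 23 to 26 and 1 to 2 at 12 h, and 9 to 11 and 2 to 3 at 24 h. Against 0 h it gave 7 to 8 and 2 to 4 in VLC at 3 h, 12 to 18 and 9 to 11 at 6 h, 29 to 31 and 10 to 12 at 12 h, and 17 to 19 and 8 to 10 at 24 h. In HC it gave 5 to 7 and 1 to 3 at 3 h, 12 to 14 and 8 to 10 at 6 h, 20 to 21 and 23 to 26 at 12 h, and 13 to 14 and 16 to 17 at 24 h. For VLC/HC 24 h minus 12 h it gave 14 to 16 and 2 to 4. Counts moved by over 1.5 times in VLC/HC at 6 h without replicate 1 of VLC (2 higher, the flippases g1230 and g1231), in VLC/HC at 12 h without replicate 2 of VLC or of HC (2 lower), and against 0 h without replicate 2 of VLC at 3 h (2 lower) or of HC at 3 h (1 lower). The lone library of such a group was assumed to vary like the other groups. With 2 libraries a group, differences near 2-fold can cross the rule by leaving out 1 library.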
